A study of Saccharomyces cerevisiae with 12 samples.

Results

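The change between 48 h and 96 h of a fermentation was followed in ITD00185, a strain of the budding yeast Saccharomyces cerevisiae taken to be the agave strain of the series title. Of the 12 arrays of the series, 6 carried RNA of ITD00185 and were chosen by strain and time alone, 3 from 96 h and 3 from 48 h. The other 6 arrays carried T73, a commercial wine yeast, 3 from 96 h and 3 from 48 h. They serve here for the spread between arrays, the choice of genes tested and the scaling of arrays. Their change is also set beside that of ITD00185, and the difference is tested. All cultures were grown at 28 ºC in a synthetic must made to resemble that of agave, and the labels call the 3 arrays of a group biological replicates. Total RNA of a strain was amplified, labelled with Cy5 and hybridized together with a Cy3 mix of samples from the same time point. The labels do not say what the mix was made of, and no array had the dyes exchanged.

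Each value is the log2 ratio of the strain to the mix, where a difference of 1 is a factor of 2. The direction of the ratio and the base of the logarithm are not stated, and strain over mix on the log2 scale is the likely reading from the order of channels and dyes and from the usual convention. Because the mix of a 96 h array was itself of 96 h, and that of a 48 h array of 48 h, a gene that is called higher at 96 h here has a higher ratio to its mix. Whether the strain or the mix differed between the times cannot be told apart. A gene that ITD00185 lacks, or carries in a sequence unlike the probe, would also read low, and its ratio can still differ between the times with the mix. No level per cell can be read from such ratios, so neither the strain's identity nor a ranking of genes by abundance was checked.

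As background, yeast in a must first uses the sugars by glycolysis and ethanol formation, and grows as long as nitrogen, sulfur, vitamins and lipids last. Later, growth slows, ethanol and other stresses build up, and cells take up a program that includes chaperones, protein turnover, reserve carbohydrates and, where glucose is low and oxygen present, respiration. Heat shock proteins hold and refold damaged proteins, the proteasome degrades proteins tagged with ubiquitin, and cytosolic ribosomal proteins and ribosome assembly factors make up much of the transcription of growing cells.

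One array stands apart from the group it is labelled with. The array labelled 48 h replicate 2 correlated with the 96 h arrays at Pearson r of 0.83, 0.82 and 0.86, against 0.42 and 0.51 with the other 48 h arrays. By comparison, the 96 h arrays correlated with one another at 0.88 to 0.91, and 48 h replicates 1 and 3 with each other at 0.74. Replicates 1 and 3 reached 0.35 to 0.51 with the 96 h arrays. With the T73 arrays of 48 h, the ITD00185 arrays of 96 h reached 0.58 to 0.76 and 48 h replicate 2 reached 0.64 to 0.72, against 0.21 to 0.29 for replicate 1 and 0.32 to 0.43 for replicate 3. With the T73 arrays of 96 h, replicate 2 reached 0.54 to 0.66. These correlations run across 5174 to 5453 genes of arrays that share probes and dyes, and they are given as a description. The standard deviation of the log2 ratios over probes was 1.52 on 48 h replicate 2 and 1.48 to 1.71 on the 96 h arrays, but 1.03 and 1.06 on 48 h replicates 1 and 3.

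**Figure D1:**
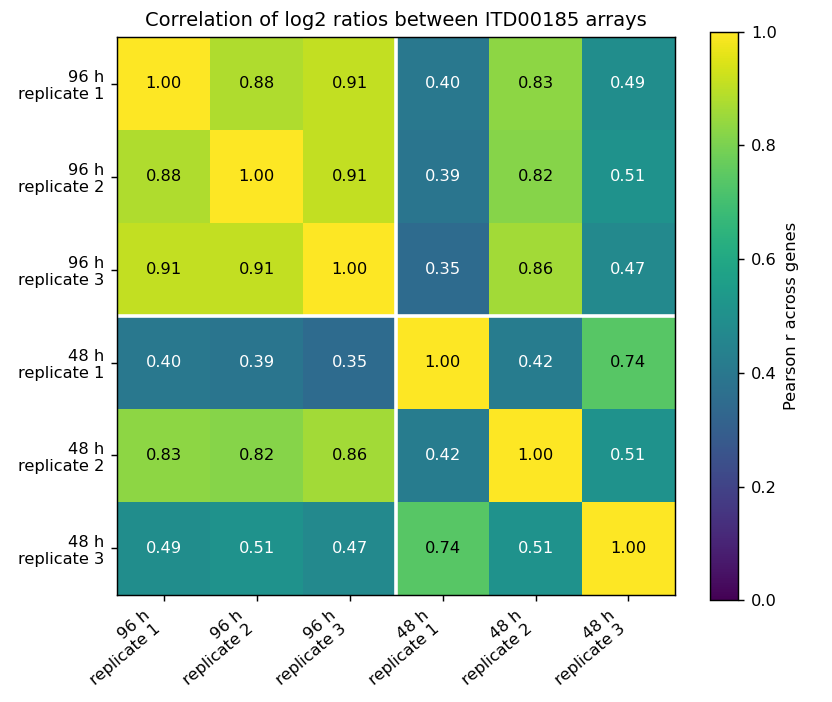
Pearson correlation across genes between the log2 ratios of the 6 ITD00185 arrays, the 96 h arrays first, with colour running from 0 to 1. The array labelled 48 h replicate 2 has r of 0.82 to 0.86 with the 96 h arrays, against 0.42 and 0.51 with the other 48 h arrays.

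The same is seen gene by gene. Among the 2035 genes that were called without 48 h replicate 2 and had a value on all 6 arrays, the array lay a median of 82.0% of the way between the mean of the other 48 h arrays and the mean of the 96 h arrays, with quartiles of 57.9% and 102.0%. It lay beyond the halfway point for 1646 of these genes (80.9%) and beyond the 96 h mean for 546. It lay within the first 25% of the way, or before the start, for 165. The genes that are higher at 96 h had a median position of 83.9%, and those that are lower 80.4%. The array keeps its label in all that follows. Counts and changes are given with all arrays and without it.

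**Figure D2:**
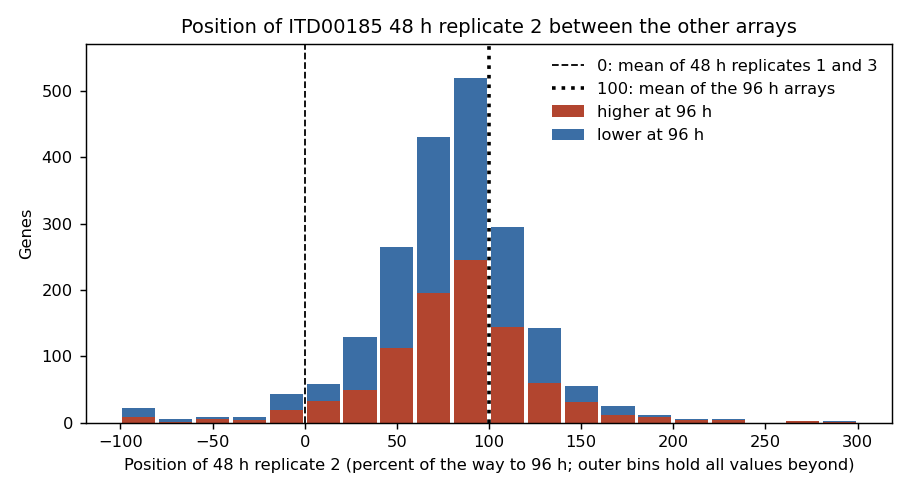
Position of 48 h replicate 2 for the 2035 genes called without it, in percent of the way between the mean of 48 h replicates 1 and 3 (0) and the mean of the 96 h arrays (100), in bins of 20 percent stacked by the direction of the change. Most genes lie between the halfway point and the 96 h mean, with a median of 82.0%.

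With all 12 arrays in the model, 357 of 5474 genes were called different between 96 h and 48 h (6.52%), that is, had a limma p under 0.05 after Benjamini-Hochberg adjustment. Of these, 209 were higher at 96 h (3.82%) and 148 lower (2.7%). Without 48 h replicate 2, 2094 of 5344 genes were called (39.2%), 987 higher (18.5%) and 1107 lower (20.7%). Genes called in both fits in the same direction numbered 354, of which 209 were higher and 145 lower. The 96 h and 48 h arrays did not overlap for 1724 of the 5162 genes with all 6 values (33.4%), 676 higher (13.1%) and 1048 lower (20.3%). The median change over all genes was -0.12 with all arrays and -0.15 without replicate 2. After all arrays were brought to one spread, 233 genes were called with all arrays, 164 higher and 69 lower, and 2335 without replicate 2. Every ITD00185 array weighed on the count: it was 7 without 48 h replicate 1, 58 without 48 h replicate 3, and 85, 21 and 29 without 96 h replicates 1, 2 and 3. The T73 arrays enter through the spread and the choice of genes tested, and leaving out 96 h replicate 1, 2 or 3 of T73 gave 115, 153 and 122. In the fit without 48 h replicate 2, leaving out 48 h replicate 1 as well left a single 48 h array and 886 calls.

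Genes are named below by the rules given with the processing, first the 12 largest rises and 12 largest falls that passed in both fits. Beside each change stands its standard error (SE) from the model with 3 arrays per group, 2 at 48 h where replicate 2 is left out. A T73 group has fewer where an array holds no value for the gene. A second value within the brackets is the change in the other fit, without replicate 2 or with all arrays. ROX1, the repressor of genes of anaerobic growth that is itself made when heme is present, had log2 ratios of 4.19, 4.23 and 4.14 at 96 h, against -1.60, -0.07 and -0.79 at 48 h. No 48 h array came near the 96 h arrays, and replicate 2 lay 21% of the way. Its change was 5.01 ± 0.69 (SE, adjusted p = 0.00738), and 5.38 ± 0.75 without replicate 2 (adjusted p = 0.00136). The stress-inducible Hsp70 gene SSA4 stood at 3.90, 3.77 and 4.04 at 96 h, against -2.45, 0.77 and -0.27 at 48 h, and rose by 4.55 ± 0.64 with all arrays (adjusted p = 0.00738) and by 5.26 ± 0.55 without replicate 2 (adjusted p = 0.000704). STI1, which couples Hsp70 to Hsp90, had 3.26, 3.56 and 3.13 at 96 h, against -1.36, -0.22 and -0.68 at 48 h. All 48 h values were below 0 and all 96 h values far above it, a change of 4.07 ± 0.61 with all arrays (adjusted p = 0.0093) and 4.33 ± 0.68 without replicate 2 (adjusted p = 0.00184).

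RLM1, the transcription factor at the end of the cell wall integrity pathway, was at 3.53, 2.61 and 3.76 at 96 h, against -0.72, -1.20 and 0.35 at 48 h. Here replicate 2 was the lowest of the 48 h arrays, so the change of 3.82 ± 0.48 (adjusted p = 0.0058) became smaller without it, at 3.48 ± 0.50 (adjusted p = 0.00141). ZEO1, a membrane-associated protein tied to the same pathway, is the opposite case, with 5.98, 5.08 and 8.48 at 96 h, against 0.43, 4.98 and 0.31 at 48 h. Its replicate 2 value lay 75% of the way to 96 h and just under the lowest 96 h array. The change was 4.61 ± 1.18 (adjusted p = 0.0468) and grew to 6.14 ± 0.85 without replicate 2 (adjusted p = 0.0013). PIL1, a core protein of the plasma membrane domains called eisosomes, had 4.92, 4.54 and 4.47 at 96 h, against 0.09, 2.59 and 0.27 at 48 h, with replicate 2 between the groups, and rose by 3.66 ± 0.68 (adjusted p = 0.02, 4.46 without replicate 2). STD1, which acts in glucose signalling, had 2.38, 2.64 and 2.75 at 96 h, against -2.12, 0.60 and -1.24 at 48 h, and rose by 3.51 ± 0.67 (adjusted p = 0.0224, 4.27 without replicate 2).

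MDJ1, the partner of mitochondrial Hsp70, had 3.97, 4.53 and 5.13 at 96 h, against -0.14, 3.12 and 0.37 at 48 h, and again replicate 2 lay nearer the 96 h arrays. Its change was 3.43 ± 0.69 (adjusted p = 0.0246, 4.43 without replicate 2). The bromodomain gene BDF2 showed 4.48, 3.96 and 4.89 at 96 h, against -0.89, 3.36 and -0.80 at 48 h, and only just passed with all arrays, at 3.88 ± 1.04 (adjusted p = 0.0499, 5.29 without replicate 2). ENV11 had 5.60, 4.47 and 5.76 at 96 h, against -1.29, 2.56 and -0.49 at 48 h, and a change of 5.01 ± 1.01 (adjusted p = 0.0271, 6.16 without replicate 2). CWC15, a spliceosome component, rose by 3.42 ± 0.68 (adjusted p = 0.0257, 3.85 without replicate 2). IRC20, a ubiquitin ligase, rose by 3.39 ± 0.47 (adjusted p = 0.00738, 3.72 without replicate 2), its 48 h values of -0.78, 0.16 and -0.86 lying well below the 96 h values of 2.80, 3.11 and 2.78.

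Among the largest falls were genes of sulfate uptake and of heme, lipid, acetate and pyrimidine metabolism. URA2, which carries out the first steps of pyrimidine synthesis, had -1.86, -2.07 and -1.30 at 96 h, against 0.50, 0.35 and 0.19 at 48 h. All 48 h arrays, replicate 2 included, lay close together, and the change was -2.09 ± 0.24 (adjusted p = 0.00568), the same in size without replicate 2 (adjusted p = 0.00104). SUL1, the high-affinity sulfate permease, had -2.00, -1.89 and -2.26 at 96 h, against 0.41, -0.10 and 0.48 at 48 h, and fell by 2.31 ± 0.29 (adjusted p = 0.0058, -2.49 without replicate 2). SSF1, a factor in the assembly of the large ribosomal subunit, had -3.02, -3.76 and -3.62 at 96 h, against -0.49, -0.76 and -0.65 at 48 h, and fell by 2.83 ± 0.39 (adjusted p = 0.00738, -2.90 without replicate 2). For these genes the 48 h arrays agree among themselves within less than the gap to 96 h.

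HEM1, the enzyme of the first step of heme synthesis, had -1.55, -1.86 and -1.70 at 96 h, against 0.86, 1.19 and -0.55 at 48 h, with replicate 2 the highest of all, and fell by 2.21 ± 0.38 (adjusted p = 0.0183, -1.86 without replicate 2). ZPS1, a cell surface protein regulated by zinc, likewise had its highest value on replicate 2, with -1.29, -1.30 and -0.65 at 96 h, against 0.87, 1.23 and 0.57 at 48 h, and fell by 1.97 ± 0.51 (adjusted p = 0.0475, -1.80 without replicate 2). The aquaporin gene AQY1 had -4.04, -5.01 and -4.72 at 96 h, against -0.53, -2.82 and -1.91 at 48 h, and fell by 2.84 ± 0.49 (adjusted p = 0.0182, -3.37 without replicate 2). INO1, which makes inositol phosphate from glucose phosphate, had -3.14, -3.66 and -2.89 at 96 h, against -0.30, -1.93 and -0.52 at 48 h, and fell by 2.31 ± 0.43 (adjusted p = 0.02, -2.82 without replicate 2). For AQY1 and INO1 replicate 2 lay near the middle, at 47% and 54% of the way.

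ACS1, an acetyl-CoA synthetase, had -2.08, -2.95 and -2.33 at 96 h, against 0.50, -1.04 and 0.06 at 48 h, and fell by 2.29 ± 0.44 (adjusted p = 0.0229, -2.73 without replicate 2). CIT2, the peroxisomal citrate synthase, fell by 2.08 ± 0.32 (adjusted p = 0.00959, -2.32 without replicate 2). SED4, which acts in vesicle formation at the endoplasmic reticulum, fell by 2.37 ± 0.37 (adjusted p = 0.0112, -2.82 without replicate 2). The enolase-related gene ERR1 and the biotin precursor transporter gene BIO5 fell by 2.05 ± 0.49 and 1.99 ± 0.36 (adjusted p = 0.0397 and 0.0191), with changes of -2.37 and -2.34 without replicate 2. With arrays at one spread their changes were -1.28 and -0.49 and were no longer called (adjusted p = 0.165 and 0.193). Among all 24 genes named by size, every change kept its sign at one spread, 19 stayed called with all arrays and 22 without replicate 2. With the mean profile of the 12 arrays removed every change again kept its sign, but 15 stayed called with all arrays and 20 without replicate 2. AQY1, for example, then changed by -1.06 (adjusted p = 0.0757), and by -0.89 without replicate 2 (adjusted p = 0.0646).

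**Figure D3:**
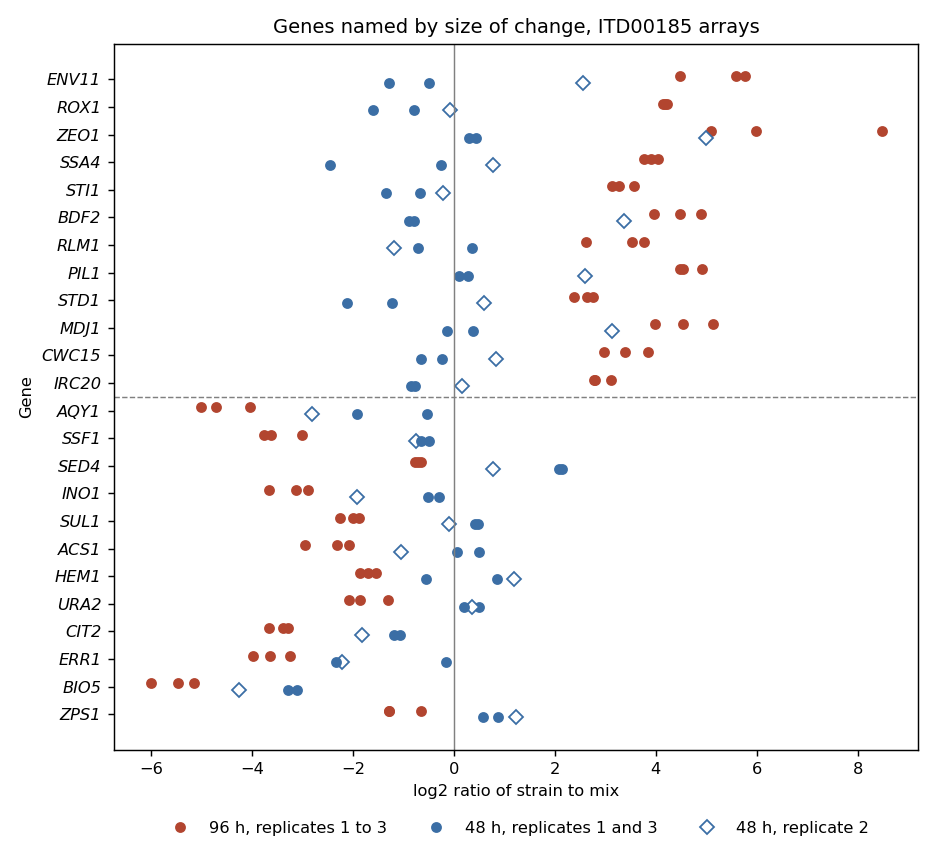
Log2 ratios of strain to mix for the 24 genes named by size, rises above the dashed line and falls below it, with 1 point per ITD00185 array, 96 h arrays in red and 48 h arrays in blue, 48 h replicate 2 as an open diamond. The 96 h and 48 h arrays do not overlap in any of these genes, which the rule required, and replicate 2 lies over 50% of the way to 96 h in 7 of them.

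Few calls stayed when each of the 12 arrays was left out in turn. Of the 98 genes named by the rules, 94 lost their call without 48 h replicate 1, 77 without 48 h replicate 3, and 69, 89 and 87 without 96 h replicates 1, 2 and 3. The rule itself required a call without 48 h replicate 2. The largest adjusted p over the 12 leave-outs was 0.0505 for ROX1 and 0.191 for BDF2. Over all genes, the calls that stayed throughout were 7 in number, namely SSA4, RLM1, SUL1 and URA2 from above, SAC3 of the messenger RNA export machinery with a rise of 2.96, SRP54 of the signal recognition particle with a rise of 2.42, and the open reading frame YMR316C-A with a rise of 3.43. SAC3, SRP54 and YMR316C-A are named for this count, after their values were seen. The scale of the arrays mattered as well, since 50 of the 98 genes stayed called in the same direction at one spread with all arrays and 82 without replicate 2, and 40 and 63 did with the mean profile removed. At one spread 15 of the 98 were called in neither fit, and those among them that are described here, besides ERR1 and BIO5, are marked below.

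The shares to set beside every list below are those of all genes, 3.82% higher and 2.7% lower with all arrays. Without replicate 2 they are 18.5% higher and 20.7% lower, or 39.2% in either direction. Chaperones had the largest share of genes called higher among the 42 lists, in both fits. Of 41 measured genes of heat shock proteins and chaperones, 10 were called with all arrays, all of them higher, and 24 without replicate 2, 22 higher and 2 lower (53.7% higher, beside 18.5% of all genes). Their median change was 1.10 with all arrays and 1.52 without replicate 2, beside -0.12 and -0.15 over all genes tested. It stayed above 0 in both fits at one spread (1.09 and 1.40), under quantile normalization (0.91 and 1.21) and once the mean profile of the 12 arrays had been removed (0.70 and 0.79). On single arrays the list's median ratio was 0.85, 1.71 and 1.51 at 96 h, against -0.46, 0.80 and 0.17 at 48 h. Replicate 2 thus lay just under the lowest 96 h array.

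Besides SSA4, STI1 and MDJ1, the small heat shock protein gene HSP42 had 3.88, 3.13 and 2.89 at 96 h, against -0.46, 0.09 and 0.49 at 48 h. Replicate 2 was within the other 48 h values here, and the change was 3.26 ± 0.45 (adjusted p = 0.00738, 3.29 without replicate 2). ZUO1, a chaperone bound to the ribosome, had 4.92, 4.84 and 4.96 at 96 h, against 1.95, 3.49 and 1.69 at 48 h, and rose by 2.53 ± 0.42 (adjusted p = 0.018, 3.09 without replicate 2). SSC1, the mitochondrial Hsp70, had 2.65, 2.60 and 2.53 at 96 h, against -0.27, 1.91 and 0.71 at 48 h, and rose by 1.81 ± 0.44 (adjusted p = 0.042, 2.38 without replicate 2).

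Other well-known members were called only without replicate 2, and such members, here and below, were picked by adjusted p within their list after values were seen. HSP104, which pulls apart protein aggregates, had 2.23, 1.86 and 2.46 at 96 h, against -0.07, 2.18 and 0.04 at 48 h. Its replicate 2 value fell within the 96 h range, so the change was 1.47 ± 0.54 with all arrays (adjusted p = 0.0952) and 2.20 ± 0.35 without it (adjusted p = 0.00195). HSF1, the transcription factor of the heat shock response, had 0.80, 1.64 and 2.19 at 96 h, against -1.48, 1.49 and -0.85 at 48 h, and changed by 2.71 ± 0.41 without replicate 2 (adjusted p = 0.00203, 1.82 with all arrays). The 2 lower members were SSB2, an Hsp70 that binds nascent chains (change -1.46 ± 0.30 without replicate 2, adjusted p = 0.00514, and -1.03 with all arrays), and HSP31 (-1.37 ± 0.30, adjusted p = 0.00641, -1.00 with all arrays).

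The proteasome list had 6 of 37 genes called with all arrays, all higher, and without replicate 2 it had 16 of 36 higher (44.4%) and 3 lower. The median change was 0.47 and 0.75, but it fell to 0.09 and 0.33 at one spread, to -0.01 and 0.20 after quantile normalization, and to -0.12 and -0.13 with the mean profile removed, so the direction of the list depends on the scaling. With the mean profile removed 0 members were called with all arrays, and 7 were higher and 3 lower without replicate 2. PRE6, a subunit of the catalytic core, had 4.16, 4.44 and 4.27 at 96 h, against 1.50, 3.45 and 1.12 at 48 h, and rose by 2.27 ± 0.49 (adjusted p = 0.0299, 2.98 without replicate 2). RPN10, a ubiquitin receptor of the regulatory particle, had 2.65, 3.58 and 2.92 at 96 h, against 0.86, 2.05 and 1.09 at 48 h, and rose by 1.72 ± 0.35 (adjusted p = 0.0254, 2.08 without replicate 2). UMP1, which assists assembly of the core, had 2.63, 3.23 and 2.50 at 96 h, against 1.26, 1.40 and 1.36 at 48 h. Its 48 h arrays agreed closely, replicate 2 included, and the change was 1.45 ± 0.30 (adjusted p = 0.0257, 1.48 without replicate 2). At one spread its change was 0.81 (adjusted p = 0.083), and 0.62 without replicate 2 (adjusted p = 0.0721), called in neither fit. BLM10, an alternative activator, was among the lower members without replicate 2 (-1.29 ± 0.24, adjusted p = 0.00343, -0.95 with all arrays).

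Genes of the mitochondrial ribosome and respiratory chain were mostly higher where called, and those of the citric acid cycle lower. Of 58 mitochondrial ribosomal protein genes, 4 were called with all arrays, all higher, and 20 without replicate 2, 18 higher (31.0%, beside 18.5% of all genes) and 2 lower, with median changes of 0.49 and 0.81. In either direction 34.5% were called without replicate 2, below the 39.2% of all genes. With the mean profile removed the medians were 0.12 and 0.18, 0 genes were called with all arrays, and 6 were higher and 2 lower without replicate 2. RSM10, of the small subunit, had 0.99, 1.63 and 1.30 at 96 h, against -0.19, 0.09 and 0.06 at 48 h, and rose by 1.32 ± 0.23 (adjusted p = 0.0185, 1.37 without replicate 2). MRPL8, of the large subunit, had 1.68, 1.88 and 1.82 at 96 h, against 0.71, 0.76 and 0.76 at 48 h, and rose by 1.05 ± 0.23 (adjusted p = 0.0301, 1.06 without replicate 2). In both genes replicate 2 was with the other 48 h arrays. At one spread MRPL8 was called in neither fit (adjusted p = 0.0882, and 0.0705 without replicate 2). MRPS16 was unlike them, with 1.28, 2.19 and 1.80 at 96 h, against -1.14, 2.10 and -1.02 at 48 h, and was called only without replicate 2 (2.83 ± 0.44, adjusted p = 0.00181, 1.77 with all arrays).

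Of 42 genes of the respiratory chain and ATP synthase, 3 were higher and 1 lower with all arrays, and 14 were higher (33.3%, beside 18.5% of all genes) and 4 lower without replicate 2, or 9 higher and 1 lower with the mean profile removed. In either direction 42.9% were called without replicate 2, near the 39.2% of all genes. The complex III subunit gene QCR7 had 3.13, 3.91 and 3.58 at 96 h, against -0.57, 1.92 and -0.62 at 48 h, and rose by 3.30 ± 0.70 (adjusted p = 0.0281, 4.13 without replicate 2). HAP2, a subunit of the activator of respiratory genes, had 1.88, 4.12 and 2.44 at 96 h, against -0.57, 1.01 and -0.39 at 48 h, and rose by 2.79 ± 0.61 (adjusted p = 0.031, 3.29 without replicate 2). The cytochrome oxidase subunit gene COX9 fell by 0.90 ± 0.23 (adjusted p = 0.0475, -0.86 without replicate 2, and at one spread -0.58 and -0.49, called in neither fit), with -1.29, -1.51 and -1.31 at 96 h, against -0.18, -0.39 and -0.84 at 48 h. CYT1, the gene of cytochrome c1, rose by 1.65 ± 0.35 without replicate 2 (adjusted p = 0.00586, 1.33 with all arrays), while COX5A fell by 0.95 ± 0.29 (adjusted p = 0.0266, -0.57 with all arrays) and was not called at one spread (-0.29, adjusted p = 0.34). SOD2, the superoxide dismutase of the matrix, had 2.15, 2.32 and 2.01 at 96 h, against -0.24, -0.35 and -0.48 at 48 h, with all 48 h arrays close together, and rose by 2.51 ± 0.39 (adjusted p = 0.00988, 2.52 without replicate 2). Of the import genes, SSC1 rose, as given above, and TIM17, of the inner membrane translocase, fell by 1.45 ± 0.31 (adjusted p = 0.0281, -1.71 without replicate 2).

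The citric acid cycle list had 22 genes, of which limma called 0 with all arrays (9 lower and 0 higher at an unadjusted p under 0.05) and 10 without replicate 2, all lower (45.5%, beside 20.7% of all genes). At that unadjusted p, 837 of all 5474 genes were higher and 963 lower with all arrays. With the mean profile removed 4 were called without replicate 2, all lower. Its median ratio was -0.23, -0.77 and -0.53 on the 96 h arrays, against 0.44, -0.36 and 0.16 on the 48 h arrays. FUM1, the fumarase, had -0.09, -0.54 and -0.37 at 96 h, against 1.44, 0.04 and 0.78 at 48 h, and fell by 1.44 ± 0.26 without replicate 2 (adjusted p = 0.00306, -1.09 with all arrays). IDP1, the mitochondrial NADP isocitrate dehydrogenase, fell by 1.44 ± 0.28 (adjusted p = 0.00444, -1.10 with all arrays).

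Genes of glycolysis were mostly lower at 96 h where they were called. The called genes of ethanol formation and acetate, few with all arrays, were all lower. Of the glycolysis list, 0 of 21 genes were called by limma with all arrays (1 higher and 11 lower at an unadjusted p under 0.05, beside 837 and 963 of all 5474 genes). Without replicate 2, 2 were higher and 9 lower of 20 (45.0% lower, beside 20.7% of all genes). The list's median was 0.12, -0.60 and -0.23 on the 96 h arrays, against 0.90, 0.24 and 0.68 on the 48 h arrays. The 2 higher members were GPM2, a relative of phosphoglycerate mutase, with a change of 1.59 ± 0.31 without replicate 2 (adjusted p = 0.00428, 0.96 with all arrays), and PFK26, which makes the activator of phosphofructokinase, with 1.64 ± 0.41 (adjusted p = 0.0113, 1.08 with all arrays). PFK1 and PFK2 encode the subunits of phosphofructokinase. PFK1 had -1.24, -1.77 and -1.64 at 96 h, against 0.19, -0.93 and 0.11 at 48 h, and fell by 1.70 ± 0.32 without replicate 2 (adjusted p = 0.00381, -1.34 with all arrays). PFK2 had -0.66, -1.27 and -1.12 at 96 h, against 0.87, -0.48 and 0.63 at 48 h, and fell by 1.76 ± 0.35 (adjusted p = 0.00434, -1.35 with all arrays). In both genes all 48 h arrays were above the 96 h arrays, yet the calls missed the threshold with replicate 2 kept (adjusted p = 0.0512 and 0.0621).

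Of 16 genes of alcoholic fermentation and acetate, 2 were called lower with all arrays, ACS1 and ADH4, and 9 without replicate 2 (56.2%). With the mean profile removed 0 were called with all arrays, and 7 were lower without replicate 2. ADH4, an alcohol dehydrogenase, had 0.03, -0.25 and 0.08 at 96 h, against 1.96, 0.61 and 1.48 at 48 h, and fell by 1.40 ± 0.37 (adjusted p = 0.0485, -1.77 without replicate 2). PDC5, a pyruvate decarboxylase, had 0.74, 0.25 and 0.26 at 96 h, against 2.78, 0.80 and 1.91 at 48 h, and fell by 1.93 ± 0.40 without replicate 2 (adjusted p = 0.00526, -1.41 with all arrays). Gluconeogenesis and the glyoxylate cycle, which run when sugar is gone, were mostly lower where called. Here 3 of 17 genes were called with all arrays, all lower, and 1 was higher and 9 lower without replicate 2, or 1 and 3 with the mean profile removed. FBP1, the fructose bisphosphatase of gluconeogenesis, had -0.77, -0.88 and -0.51 at 96 h, against 0.81, -0.11 and 0.77 at 48 h, and fell by 1.21 ± 0.31 (adjusted p = 0.0468, -1.50 without replicate 2). In the pentose phosphate pathway 6 of 11 genes were lower without replicate 2, and SOL3, a phosphogluconolactonase, also with all arrays (fell by 1.46 ± 0.38, adjusted p = 0.0479, -1.83 without replicate 2). GSY1, a glycogen synthase, went the other way, with 2.10, 1.64 and 2.25 at 96 h, against 0.38, -0.19 and 0.75 at 48 h, and rose by 1.68 ± 0.33 (adjusted p = 0.0237, 1.43 without replicate 2). With the mean profile removed it was called in neither fit (adjusted p = 0.158, and 0.305 without replicate 2). It was the only call with all arrays among 21 trehalose and glycogen genes. Without replicate 2 that list had 3 higher and 4 lower of 20 (35.0% called, beside 39.2% of all genes).

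Of 19 genes of glucose repression and sensing, 2 were called with all arrays, both higher, and 7 were higher and 1 lower without replicate 2 (36.8% higher). One is STD1, and the other MIG1, the repressor that acts when glucose is plentiful. MIG1 had 3.71, 7.10 and 4.73 at 96 h, against -1.00, 3.78 and -0.04 at 48 h, with replicate 2 above the lowest 96 h array. Its change was 4.27 ± 1.09 (adjusted p = 0.0468) and 5.70 ± 0.78 without replicate 2 (adjusted p = 0.00124). Hexose transporter genes gave 0 limma calls of 17 with all arrays and 0 of 16 without replicate 2, and the numbers at an unadjusted p under 0.05 were 1 higher and 0 lower with all arrays and 1 higher and 0 lower without it. Over all genes these numbers were 837 higher and 963 lower of 5474, and 1211 and 1467 of 5344 without replicate 2. At one spread limma called 0 hexose transporter genes higher and 3 lower without replicate 2, beside 1154 and 1181 of all genes. Quantile normalization also gave 0 higher and 3 lower in that fit, beside 1056 and 1288 of all genes. With all arrays both scalings gave 0 calls in this list. Several of these transporters are close in sequence, and probes may not tell them apart.

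**Figure D4:**
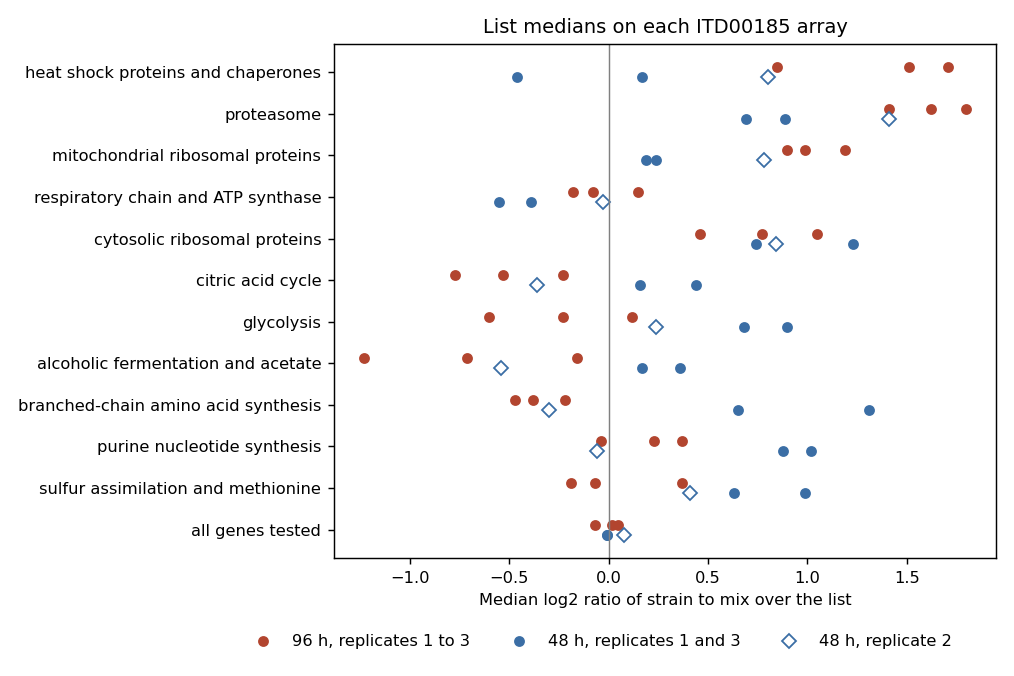
Median log2 ratio of strain to mix over the genes of 11 lists and over all genes tested, with 1 point per ITD00185 array, 96 h arrays in red and 48 h arrays in blue, 48 h replicate 2 as an open diamond. The chaperone median was 0.85, 1.71 and 1.51 at 96 h, against -0.46, 0.80 and 0.17 at 48 h, and in most lists replicate 2 lay toward the 96 h arrays.

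For genes of the translation machinery, the counts of higher and lower calls depended on the scaling. Of 126 cytosolic ribosomal protein genes, 2 were higher and 1 lower with all arrays, and 19 were higher (15.1%) and 34 lower (27.0%) without replicate 2. Their median change was -0.09 and -0.10, near that of all genes, and became -0.46 and -0.68 at one spread, with 14 higher and 53 lower in the fit without replicate 2. After quantile normalization that fit had 10 higher and 58 lower, and with the mean profile removed 1 higher and 65 lower, at a median of -1.04. RPP2B, an acidic stalk protein, had 0.06, 0.27 and -0.04 at 96 h, against 2.80, 0.98 and 1.59 at 48 h, and fell by 1.69 ± 0.39 (adjusted p = 0.036, -2.10 without replicate 2). RPL24B had 3.47, 4.71 and 3.72 at 96 h, against 1.10, 2.91 and 0.60 at 48 h, and rose by 2.43 ± 0.64 (adjusted p = 0.0489, 3.12 without replicate 2). The genes of RPL24A and RPL24B are near copies, and probes may not separate them. RPL4A fell by 1.66 ± 0.29 without replicate 2 (adjusted p = 0.00277, -1.12 with all arrays).

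Among 92 ribosome biogenesis genes, 6 were higher and 2 lower with all arrays, and 25 were higher (29.1%, beside 18.5% of all genes) and 8 lower of 86 without replicate 2. In either direction 38.4% were called without replicate 2, near the 39.2% of all genes. Without replicate 2 the balance was 23 higher and 15 lower at one spread and 10 higher and 13 lower with the mean profile removed, which also gave 2 higher and 5 lower with all arrays. UTP5, of the complex that processes small subunit RNA, had 3.37, 3.36 and 2.53 at 96 h, against 0.76, 0.42 and 0.74 at 48 h, and rose by 2.45 ± 0.49 (adjusted p = 0.0238, 2.34 without replicate 2). NOC4, of the same process, had -1.19, -1.23 and -1.03 at 96 h, against 0.44, 1.70 and -0.03 at 48 h, and fell by 1.85 ± 0.36 (adjusted p = 0.0237, -1.36 without replicate 2). The RNA polymerase III subunit gene RPC82 rose by 2.19 ± 0.47 (adjusted p = 0.0299, 2.35 without replicate 2), while RPO31, the largest subunit, fell by 1.16 ± 0.27 (adjusted p = 0.0366, -1.27 without replicate 2). At one spread RPO31 changed by -0.56 (adjusted p = 0.188), and by -0.53 without replicate 2 (adjusted p = 0.188), called in neither fit. Of the elongation factors, EFB1 rose by 1.63 ± 0.44 (adjusted p = 0.0496, 2.06 without replicate 2) and EFT2, which has a near copy in the genome, fell by 1.54 ± 0.36 (adjusted p = 0.0381, -1.84 without replicate 2).

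Amino acid and nucleotide synthesis was lower at 96 h in most of what was called. Of 11 genes of branched-chain amino acid synthesis, limma called 0 with all arrays (6 lower at an unadjusted p under 0.05, beside 963 of all 5474 genes). Without replicate 2 it called 7, all lower (63.6%, beside 20.7% of all genes). ILV3, a dihydroxyacid dehydratase, had -0.51, -0.43 and -0.38 at 96 h, against 2.55, -0.30 and 0.79 at 48 h, and fell by 2.11 ± 0.46 without replicate 2 (adjusted p = 0.00659, -1.45 with all arrays). LEU4, which starts leucine synthesis, fell by 1.63 ± 0.28 (adjusted p = 0.00258, -1.13 with all arrays). For both genes replicate 2 lay 93% of the way to 96 h.

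In the list of arginine, lysine, histidine and aromatic synthesis, 3 of 39 genes were called with all arrays, all lower, and 1 was higher and 19 lower of 38 without replicate 2 (50.0% lower). LYS2, the aminoadipate reductase, had -1.14, -0.95 and -0.98 at 96 h, against 1.17, -0.26 and 0.02 at 48 h, and fell by 1.33 ± 0.33 (adjusted p = 0.0445, -1.61 without replicate 2). ARG4, the last enzyme of arginine synthesis, fell by 1.17 ± 0.28 (adjusted p = 0.0392, -1.43 without replicate 2). Of 23 purine synthesis genes, 1 was higher and 1 lower with all arrays, and 2 were higher and 12 lower without replicate 2 (52.2% lower), or 2 and 19 at one spread. The member that rose was BAS1, the activator of purine and histidine genes, with 0.45, 0.37 and 0.60 at 96 h, against -2.72, -0.53 and -2.44 at 48 h (change 2.37 ± 0.61, adjusted p = 0.0468, 3.05 without replicate 2). GUA1, the GMP synthase, fell by 1.21 ± 0.32 (adjusted p = 0.0496, -1.45 without replicate 2), and ADE13 fell by 2.09 ± 0.39 without replicate 2 (adjusted p = 0.00367, -1.61 with all arrays).

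Sulfur assimilation had 1 of 35 genes higher and 5 lower with all arrays, and 3 higher and 16 lower (45.7%) without replicate 2. Of those called with all arrays, SUL1 was the largest fall. MET10, of sulfite reductase, had -1.72, -0.82 and -1.43 at 96 h, against 1.49, -0.44 and 0.64 at 48 h, and fell by 1.88 ± 0.45 (adjusted p = 0.0394, -2.39 without replicate 2). SAM2, an S-adenosylmethionine synthetase, fell by 1.27 ± 0.28 (adjusted p = 0.0322, -1.55 without replicate 2). MET17 fell by 2.47 ± 0.36 without replicate 2 (adjusted p = 0.00146, -1.74 with all arrays). Both MET28 and MET4, regulators of the pathway, rose, MET28 by 0.99 ± 0.23 (adjusted p = 0.0383, 1.01 without replicate 2) and the activator MET4 by 4.47 ± 0.88 without replicate 2 (adjusted p = 0.00427, 3.19 with all arrays). MET4 had 4.47, 2.06 and 3.30 at 96 h, against -1.27, 2.64 and -1.11 at 48 h, so replicate 2 lay within the 96 h range.

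**Figure D5:**
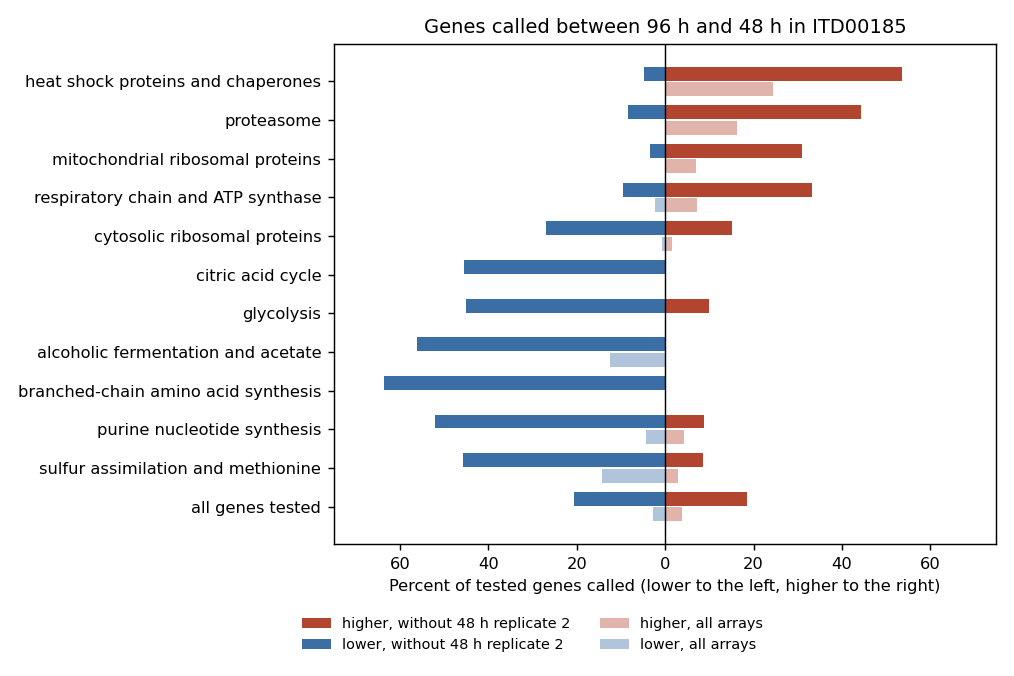
Percent of tested genes called between 96 h and 48 h in ITD00185, lower genes to the left and higher genes to the right, for 11 lists and all genes, with full colour for the fit without 48 h replicate 2 and pale colour for all arrays. Without replicate 2, 53.7% of chaperone genes were higher, beside 18.5% of all genes, and 63.6% of branched-chain amino acid genes were lower, beside 20.7%.

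Nitrogen genes gave both directions, with 1 of 39 genes under nitrogen catabolite repression higher and 4 lower with all arrays, and 8 higher and 13 lower without replicate 2. GAT1, an activator of such genes, had 2.40, 1.86 and 1.64 at 96 h, against -1.31, 0.48 and -0.32 at 48 h, and rose by 2.35 ± 0.45 (adjusted p = 0.0229, 2.78 without replicate 2). GDH3, a glutamate dehydrogenase, had -2.13, -3.48 and -2.33 at 96 h, against -1.05, -0.95 and -1.38 at 48 h, and fell by 1.52 ± 0.33 (adjusted p = 0.0301, -1.43 without replicate 2). At one spread GDH3 changed by -0.84 (adjusted p = 0.0986), and by -0.60 without replicate 2 (adjusted p = 0.12), called in neither fit. None of the 4 lower calls of this list with all arrays stayed at one spread, where 1 gene was higher and 0 lower. The asparaginase genes ASP3-1 and ASP3-3, near copies with strongly negative ratios on every ITD00185 array, changed by -1.29 and -1.36 (adjusted p = 0.032 and 0.018), and by -1.47 and -1.55 without replicate 2. At one spread their changes turned to 0.50 and 0.53, and to 0.92 and 0.97 without replicate 2, so they have no settled direction. Of 23 amino acid permease genes, 1 was lower with all arrays, SAM3 (fell by 1.45 ± 0.28, adjusted p = 0.0224, -1.56 without replicate 2), and 10 were lower without replicate 2 (43.5%, beside 20.7% of all genes), or 6 with the mean profile removed.

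Lipid genes were lower where called with all arrays. Of 26 fatty acid and phospholipid genes, 6 were called with all arrays, all lower, and 1 was higher and 10 lower (38.5%) without replicate 2. Beside INO1, PSD1, a phosphatidylserine decarboxylase, had -1.30, -1.74 and -1.22 at 96 h, against 0.39, -0.43 and 0.06 at 48 h, and fell by 1.43 ± 0.26 (adjusted p = 0.02, -1.65 without replicate 2). CHO1, the phosphatidylserine synthase, fell by 1.38 ± 0.29 (adjusted p = 0.0268, -1.61 without replicate 2). ACC1, the acetyl-CoA carboxylase that starts fatty acid synthesis, had -1.56, -2.00 and -1.43 at 96 h, against -0.15, -0.53 and -0.42 at 48 h, and fell by 1.30 ± 0.26 (adjusted p = 0.0254, -1.38 without replicate 2). These falls were also called at one spread (adjusted p = 0.0277, 0.0389 and 0.0323). In the ergosterol list HMG2, a reductase early in the pathway, fell by 1.55 ± 0.37 (adjusted p = 0.0385) and by 1.17 without replicate 2 (adjusted p = 0.0161).

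In the cell wall list 1 of 45 genes was called with all arrays, the chitin synthase gene CHS3, which fell by 1.29 ± 0.32 (adjusted p = 0.0428, -1.60 without replicate 2), and 1 was higher and 15 lower (36.6%) of 41 without replicate 2, or 1 and 24 at one spread. SED1, a wall protein of late cultures, had 2.55, 2.88 and 2.16 at 96 h, against 1.23, 0.94 and 1.04 at 48 h, and was the member that rose (1.40 ± 0.45 without replicate 2, adjusted p = 0.0326, and 1.46 with all arrays), though not at one spread (0.65, adjusted p = 0.214). FLO10, a flocculin, had -3.08, -3.50 and -3.31 at 96 h, against -0.60, -3.19 and -1.50 at 48 h, and fell by 2.25 ± 0.33 without replicate 2 (adjusted p = 0.00161, -1.54 with all arrays).

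Genes of stationary phase and general stress moved both ways on the deposited scale. Of 50 genes, 6 were higher and 3 lower with all arrays, and 15 were higher (30.6%) and 10 lower (20.4%) of 49 without replicate 2. With the mean profile removed 6 were higher and 1 lower with all arrays, and 17 higher and 2 lower without replicate 2, and the median change of 0.21 and 0.13 became 0.50 and 0.76. RTN2, a reticulon of the endoplasmic reticulum, had 2.12, 2.41 and 2.23 at 96 h, against -0.29, 0.50 and -0.49 at 48 h, and rose by 2.35 ± 0.46 (adjusted p = 0.0238, 2.64 without replicate 2). MSC1 had 2.23, 1.93 and 2.05 at 96 h, against 0.04, -0.17 and 0.09 at 48 h, with replicate 2 the lowest of the 48 h arrays, and rose by 2.08 ± 0.47 (adjusted p = 0.0352, 2.00 without replicate 2). GPG1 fell by 1.22 ± 0.24 (adjusted p = 0.0237, -1.17 without replicate 2), and SPG5, needed in stationary phase, fell by 1.63 ± 0.38 (adjusted p = 0.0366, -2.02 without replicate 2). MOH1 fell by 1.19 ± 0.25 (adjusted p = 0.0266, -1.17 without replicate 2), but its ratios were -3.21, -3.71 and -3.19 at 96 h, against -2.18, -2.15 and -2.24 at 48 h, and at one spread the change was -0.19 with all arrays and 0.13 without replicate 2.

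The autophagy list had 1 higher and 2 lower of 32 genes with all arrays, and 6 higher and 5 lower without replicate 2. In either direction 34.4% were then called, below the 39.2% of all genes. Among autophagy genes ATG20 rose by 3.39 ± 0.72 (adjusted p = 0.029, 3.93 without replicate 2), while ATG7 fell by 1.08 ± 0.29 (adjusted p = 0.0494, -1.32 without replicate 2) and ATG36, the receptor for peroxisomes, by 1.36 ± 0.36 (adjusted p = 0.0485, -1.74 without replicate 2). PEX3, which peroxisomes need to form, rose by 1.71 ± 0.44 (adjusted p = 0.0475, 2.24 without replicate 2). It was the only call with all arrays among 41 genes of peroxisomes and fatty acid oxidation. Without replicate 2 that list had 6 higher and 11 lower of 39, and 6 and 2 with the mean profile removed. Its median change was -0.42 with all arrays and -0.50 without replicate 2. In the vacuolar list 1 of 24 genes was called with all arrays, VMA4 of the proton pump, which rose by 1.48 ± 0.36 (adjusted p = 0.0412, 1.74 without replicate 2). Without replicate 2, 5 were higher and 11 lower (45.8%). VMA10, VMA8 and VMA7 of the pump were then higher, VMA7 not at one spread (0.40, adjusted p = 0.384), and VMA1, VPH1 and VMA16 of the same pump lower. For example, VMA10 had 3.06, 3.24 and 3.56 at 96 h, against -0.13, 3.07 and -0.28 at 48 h, and VPH1 had -0.10, -0.38 and -0.30 at 96 h, against 1.35, -0.05 and 0.84 at 48 h.

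Phosphate, metal and vitamin genes had more lower than higher calls without replicate 2 on the deposited scale. The list of thiamine, biotin and NAD had 1 higher and 2 lower of 35 with all arrays and 1 higher and 14 lower of 34 without replicate 2 (41.2% lower, beside 20.7% of all genes). Iron and copper genes had 1 higher and 2 lower of 34 with all arrays and 5 higher and 10 lower without replicate 2, and zinc and phosphate genes 2 higher and 2 lower of 24 and 3 higher and 8 lower of 22. With the mean profile removed these became, without replicate 2, 3 higher and 7 lower, 5 higher and 4 lower, and 1 higher and 3 lower. PHO4, the activator of phosphate starvation genes, had 1.08, 1.34 and 0.80 at 96 h, against -1.05, 0.04 and -0.83 at 48 h, and rose by 1.69 ± 0.29 (adjusted p = 0.0183, 2.01 without replicate 2). PHO85, the kinase that inhibits PHO4, rose by 1.36 ± 0.35 (adjusted p = 0.0475, 1.45 without replicate 2). HMX1, a heme oxygenase, had 1.18, 1.97 and 1.61 at 96 h, against -1.10, 0.15 and -0.65 at 48 h, and rose by 2.12 ± 0.46 (adjusted p = 0.0301, 2.47 without replicate 2), opposite in direction to HEM1 of heme synthesis. FIT1 and FIT2, cell wall proteins that retain iron carriers, fell by 1.30 ± 0.31 and 1.28 ± 0.31 (adjusted p = 0.0397 and 0.0412), with replicate 2 the highest array for both, and without it their changes were -1.01 and -0.98. At one spread FIT1 changed by -0.79 (adjusted p = 0.173) and FIT2 by -0.66 (adjusted p = 0.219), and without replicate 2 by -0.38 and -0.19, called in neither fit. BNA2, the first enzyme of NAD synthesis from tryptophan, fell by 1.72 ± 0.38 (adjusted p = 0.0327, -2.18 without replicate 2). NCE103, the carbonic anhydrase, had 1.42, 2.09 and 1.72 at 96 h, against 0.22, -0.19 and 0.57 at 48 h, and rose by 1.54 ± 0.30 (adjusted p = 0.0237, 1.35 without replicate 2).

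Several lists had shares near the background of 39.2% without replicate 2, or below it. Cell cycle, replication and histone genes had 4 higher and 10 lower of 47, aminoacyl tRNA synthetases 2 higher and 5 lower of 19, and genes of oxidative stress defence 4 higher and 5 lower of 36. Hypoxic genes and seripauperins had 4 higher and 4 lower of 31, meiosis and sporulation 4 higher and 1 lower of 28, and mating and pheromone response 3 higher and 5 lower of 26. At one spread the hypoxic genes had 11 higher and 3 lower and the tRNA synthetases 2 higher and 10 lower. The list of aroma esters and higher alcohols, which make up part of the flavour of a ferment, was above that background. It had 9 of 18 genes lower (50.0%, beside 20.7% of all genes) and 0 higher, with a median change of -0.58 with all arrays and -0.87 without replicate 2.

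The change in ITD00185 was set against the change in T73 between the same times. If both strains were hybridized with the same mix at each time, the mix falls out of this difference, though the labels do not state that it was the same. In T73, 1772 of 5474 genes were called between 96 h and 48 h (32.4%), 461 higher (8.42%) and 1311 lower (23.9%), with a median change of -0.30 over all genes. The difference between the strains in their change was called for 2080 genes (38.0%), positive for 1333 (24.4%) and negative for 747 (13.6%). At one spread 818 genes were called in T73 and 1305 in the difference. Leaving out T73 48 h replicate 2, 96 h replicate 1 or 96 h replicate 3 gave 969, 931 and 961 calls in T73. The difference had 2894 calls without ITD00185 48 h replicate 2, 1310 without its 48 h replicate 1, 1304 without its 96 h replicate 2, and 1325 and 1277 without 96 h replicates 1 and 3 of T73. Of the 354 genes called in ITD00185 in both fits, 287 were also called in this difference.

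ROX1 changed by 5.01 ± 0.69 in ITD00185, against -3.83 ± 0.69 in T73 (adjusted p = 0.00402 for T73), a difference of 8.84 ± 0.97 (adjusted p = 0.00126), and 9.21 without ITD00185 48 h replicate 2. For ZUO1 the changes were 2.53 ± 0.42 in ITD00185, against -6.03 ± 0.46 in T73, a difference of 8.56, and 9.12 without replicate 2. T73 had no ZUO1 value on its own 48 h replicate 2, so its 48 h mean rests on 7.69 and 7.92 alone. SSA4 changed by 4.55 ± 0.64 in ITD00185, against -1.78 ± 0.64 in T73, and the T73 value missed the threshold (adjusted p = 0.0538). Their difference was 6.33, and 7.04 without replicate 2. URA2 changed by -2.09 ± 0.24 in ITD00185, against 1.15 ± 0.24 in T73, a difference of -3.24 with and without replicate 2. SUL1 changed by -2.31 ± 0.29 in ITD00185, against -0.40 ± 0.29 in T73, where it was not called (adjusted p = 0.303), and the difference of -1.91 ± 0.41 was (adjusted p = 0.00711, -2.09 without replicate 2). SED4 was lower at 96 h in both strains, with changes of -2.37 ± 0.37 in ITD00185, against -1.88 ± 0.37 in T73, and the difference was not called (-0.49, adjusted p = 0.469), nor without replicate 2 (-0.94, adjusted p = 0.0585).

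Over all genes tested, the difference was positive for 1333 and negative for 747 of 5474 (24.4% and 13.6%). Without ITD00185 48 h replicate 2 it was positive for 1635 and negative for 1259 of 5344. By list, the chaperones had a median change of 1.10 in ITD00185, against -1.26 in T73. Of 41 members, 25 were called with a positive and 1 with a negative difference, and 27 and 2 without replicate 2. The proteasome genes had 0.47 in ITD00185, against -1.06 in T73, with 22 positive and 0 negative differences among 37, and 25 and 2 without replicate 2. The mitochondrial ribosomal proteins had 0.49 in ITD00185, against -0.89 in T73, with 30 positive and 0 negative differences among 58, and 35 and 4 without replicate 2. Branched-chain amino acid synthesis had -0.78 in ITD00185, against 0.91 in T73, with 7 negative and 0 positive differences among 11, and 9 and 0 without replicate 2. These list values are given on the deposited scale only. On the T73 arrays the standard deviation over probes was 1.80 to 2.08 at 48 h and 1.14 to 1.31 at 96 h. On the ITD00185 arrays it was 1.03 to 1.52 at 48 h and 1.48 to 1.71 at 96 h. How much of the list differences comes from these spreads was not tested. Both strains' values are ratios to a mix whose makeup is not given and which may hold RNA of either strain.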

How the data were processed

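Each of 12 arrays gave 1 log2 ratio of strain to mix per probe, in a table the authors deposited; its log2 scale and direction are a reading of the values and labels, since neither is stated. Scanning, background correction, filtering and normalization are not given in the sources used here. Array medians and spreads differ, so no common spread had been set. The labels and the table give no slide or scan date, so no batch was examined. No signal intensities were used, so the precision of single spots could not be judged beside the limit set by the number of arrays. Per the labels, each group's 3 arrays are biological replicates.

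The table held 6246 probes, of which 5753 matched the RefSeq gene table of strain S288C by systematic name, 34 by synonym and 459 not at all. Probes of a gene were averaged, giving 6214 genes. Each ITD00185 array had values for 5749 to 6116 probes, and 10 values beyond 10 in size were kept. Genes with values on at least 2 arrays of each of the 4 groups were tested (5474, and 5344 without ITD00185 48 h replicate 2). A model with 4 group means was fitted to all arrays with limma 3.58.1 in R 4.3.3, so that all groups share an estimate of the spread, with 8 residual and 3.16 prior degrees of freedom. Tests were two-sided, with Benjamini-Hochberg adjustment over all genes tested and a threshold of 0.05. An exact permutation test of 3 arrays against 3 cannot go below p = 0.1 and was not used. On simulated data for the 96 h against 48 h comparison of ITD00185 (5474 genes), 12.1% of genes changed by 1, 76.1% changed by 2 and 86.6% changed by 3 on the log2 scale were recovered, with 6 false calls. The genes so changed numbered 66, 67 and 67. Simulated noise was independent between arrays, with the same standard deviation in all groups and no array-wide departure like that of 48 h replicate 2. These figures therefore do not say how many calls on the real arrays are true.

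Named were the 12 largest rises and falls with a symbol, all 6 values, no overlap between the times and a call with and without 48 h replicate 2; from each of 42 gene lists, up to 4 members called in both fits, smallest adjusted p first; and the largest opposite member. Members called only without replicate 2 were added later, up to 3 per list and direction by adjusted p. The comparison, the lists and the rule were chosen with earlier results of these data known. Lists are described by counts and medians, with no test of the list. "One spread" means each array centred on its median and scaled to a common median absolute deviation from that median. Whether replicate numbers pair the samples is not stated in the array titles, and the main fit used no pairing. Deviations from the group means of same-numbered 96 h and 48 h arrays correlated at 0.34, 0.07 and -0.19. With 3 arrays per group these correlations cannot decide whether the samples were paired. Alternatives tried were array weights, centring, scaling, quantile normalization, removal of the mean profile, other filters, robust spread, ITD00185 arrays alone, a replicate block and leaving out each array. A planned search of promoters for motifs was not run here.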

Additional observations from a re-analysis of the deposited data

Results flagged for a closer look

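The change between 96 h and 48 h differed between ITD00185 and T73, by limma's test of the difference itself, for 2080 of 5474 genes. The ITD00185 change minus the T73 change was 8.84 for ROX1, 7.28 for ENV11, 7.27 for IRC20, 6.80 for MDJ1, 6.69 for PIL1, 6.51 for STD1 and 6.33 for SSA4. It was 5.99 for STI1, 5.78 for ZEO1, 5.65 for BDF2, 5.15 for CWC15 and 3.34 for RLM1. T73 lacked a value on 48 h replicate 3 for ENV11 and on 48 h replicate 1 for CWC15, so these differences rest on fewer arrays. Among the genes that fell in ITD00185, it was -4.15 for AQY1, -4.12 for INO1, -3.94 for ACS1, -3.87 for SSF1, -3.60 for HEM1 and -3.54 for CIT2. It was -3.24 for URA2, -2.90 for ERR1, -2.67 for ZPS1, -2.51 for BIO5 and -1.91 for SUL1. Without ITD00185 48 h replicate 2, the same 23 differences kept their sign and their call. These 23 of the 24 genes named by size had been chosen for a large change in ITD00185, so a large difference from another strain is in part a result of that choice. Groups of 3 arrays are too small for a test of single outlying arrays.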

How the results depend on the processing

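The count of 357 genes called between 96 h and 48 h in ITD00185 became 2835 with array weights, 233 at one spread, 204 with the mean profile removed, 683 with a replicate block and 44 with the ITD00185 arrays alone, where fewer arrays give the spread; other causes were not tested. Leaving out 1 array gave 7 to 2094. The other alternatives gave 247 to 420. Without 48 h replicate 2 (2094 calls) leaving out 1 more array gave 886 to 2344, the replicate block gave 1801, and the others ran between 1450 and 2749. Not every array correlated best with its own replicate number, which does not decide whether the numbers pair the samples. In T73 (1772 calls) one spread gave 818, quantile normalization 881 and leaving out 1 array 931 to 2270. For the difference between strains (2080 calls) array weights gave 3275, one spread 1305, quantile normalization 1343 and leaving out 1 array 1277 to 2894. For the 98 named genes, 1467 values under an alternative kept direction and call, 873 kept the direction and lost the call, and 3 reversed, and without replicate 2 these were 2133, 107 and 5. Reversed were ASP3-1 at one spread (0.50, and 0.92 without replicate 2), ASP3-3 at one spread (0.53 and 0.97), MOH1 with the mean profile removed (0.12 and 0.66) and at one spread without replicate 2 (0.13), and FIT2 without replicate 2 with the mean profile removed (0.11). The search of promoters was not run, and alternatives without 48 h replicate 2, and those on T73 and on the difference between strains, were added after seeing the data.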

Other observations

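Some genes had a value on all 3 arrays of 96 h and on no ITD00185 array of 48 h, and so entered no comparison. They were 12 in number, while 0 genes had values on all arrays of 48 h and on none of 96 h. MAL11, a transporter of maltose and related sugars, had log2 ratios of 5.46, 3.66 and 6.99 on the 96 h arrays of ITD00185, against -0.94, -1.26 and -0.81 on those of T73. T73 also had values for MAL11 at 48 h, of -1.61, -2.46 and -2.22. COX23, which acts in the assembly of cytochrome oxidase, had 1.79, 2.41 and 3.01 at 96 h in ITD00185, against 1.52, 0.45 and 0.94 in T73, while T73 at 48 h had 3.68, 3.59 and 3.85. The other 10 genes, such as MFA2, which encodes a mating pheromone, and SLI1, held 96 h ratios of either sign, -2.33, -2.90 and -3.20 for MFA2 and 1.18, 1.38 and 0.72 for SLI1. Why the 48 h arrays carry no value for these genes was not tested. A missing value can stand for a weak spot or a spot left out, and the table does not say which.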
